A study of Danio rerio with 8 samples.

Results

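Transcription factors that position the midbrain-hindbrain boundary and the hindbrain segments were examined in RNA-seq libraries of the zebrafish hindbrain. The genes were chosen by name: otx2b, gbx1, gbx2, en1a, en2a, en2b and pax2a at the midbrain-hindbrain boundary, and egr2a and egr2b in the rhombomeres, the segments of the hindbrain. The 9 names matched 10 of the 32189 Ensembl gene IDs that were counted. Zebrafish carries en2a and en2b, and pax2a and pax2b, as duplicate pairs, and the symbol table gave only EN2 for 2 IDs and only PAX2 for another 2. These 4 IDs could not be assigned to a paralogue, were all kept, and are printed under the capital symbol with the ID. A tested gene is one that passed edgeR's filter on low counts, and 8 of the 10 IDs passed. The IDs that did not were en1a and EN2 ENSDARG00000026599.

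The 8 libraries were each made from a single dissected hindbrain with its surrounding tissue at 24 to 25 hours post-fertilisation (hpf). The ca_fgfr1 group held 4 embryos with the Tg(hsp70:ca-fgfr1) transgene, a constitutively active Fgf receptor 1 under a heat-shock promoter, and the control group held 4 embryos recorded as wt at this transgene. Both groups came from outcrosses of the transgenic line and from 1 heat-shocked clutch, so the controls had the same treatment: 30 min at 38.5°C from 22 hpf, then 2 h at 28.5°C, the temperature at which they were raised. The promoter is not restricted to the hindbrain, the ca_fgfr1 embryos were heterozygous, and the study assigned the embryos to groups by qPCR on the extracted RNA. Because whole dissections were sequenced, fewer cells of a type and less RNA per cell cannot be told apart.

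The midbrain-hindbrain boundary forms where the Otx domain of the forebrain and midbrain meets the Gbx domain of the anterior hindbrain. Cells at this boundary make Fgf and Wnt signals, and the Pax2 and Engrailed factors are expressed around it and help to maintain it. Within the hindbrain, Egr2 (Krox20) is expressed in rhombomeres 3 and 5 and is needed for their identity. Fgf signalling from the boundary and from the early hindbrain is known to take part in setting up both sets of domains. The levels of the factors therefore bear on 2 questions: how far along the anterior-posterior axis each dissection reached, and whether the factors responded to the activated receptor.

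The libraries held 13173019 to 20541155 counts, and 21708 to 23702 genes had at least 1 count in each. Levels are given as CPM, a gene's counts relative to a library total scaled with TMM factors (trimmed mean of M values). Control replicate 1 stood apart, with a TMM factor of 0.811 (0.940 to 1.15 elsewhere), and its mean correlation across genes with its own group was 0.893, against 0.926 to 0.953. Within each group, every pair of libraries differed by more than sampling noise. Both IDs named FGFR1 in the symbol table overlapped between the groups (log2 fold changes 0.08 ± 0.26 and -0.46 ± 0.39 SE, edgeR adjusted p 0.975 and 0.884), so these counts do not show the transgene and the group labels could not be checked by it. Summed markers of epidermis ranged from 7212.5 to 13839 CPM in ca_fgfr1 and from 9015 to 24695 CPM in control, and summed otic vesicle markers from 555 to 1142 CPM in ca_fgfr1 and from 606 to 840 CPM in control, so tissue around the hindbrain was present in every library.

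None of the 8 tested IDs met the study's criteria in edgeR, which combine an adjusted p of at most 0.01 and a 2-fold change with more than 30 normalised counts in all libraries of 1 of the groups or both. Over all 18075 tested genes the same criteria called 3, or 0.0166%. At an adjusted p of 0.05 the count was 0 of 8 IDs, against 0.0498% of all genes. At an unadjusted edgeR p under 0.05 it was 1 of 8, EN2 ENSDARG00000038868, against 5.34% of all genes, and the same ID was the 1 of 8 whose groups did not overlap, against 3.34% of all genes. With DESeq2, the tool named in the study's methods, EN2 ENSDARG00000038868 met the criteria, and 0.249% of all genes did so (0.454% passed an adjusted p of 0.05). Of the 8 log2 fold changes, 3 were above 0 and 5 below, with a median of -0.06, and the median over all tested genes was -0.04. The sign of this median was not stable: leaving out 1 library moved it between -0.28 (without control replicate 1) and 0.26 (without control replicate 2), and limma-voom gave 0.02.

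**Figure D1:**
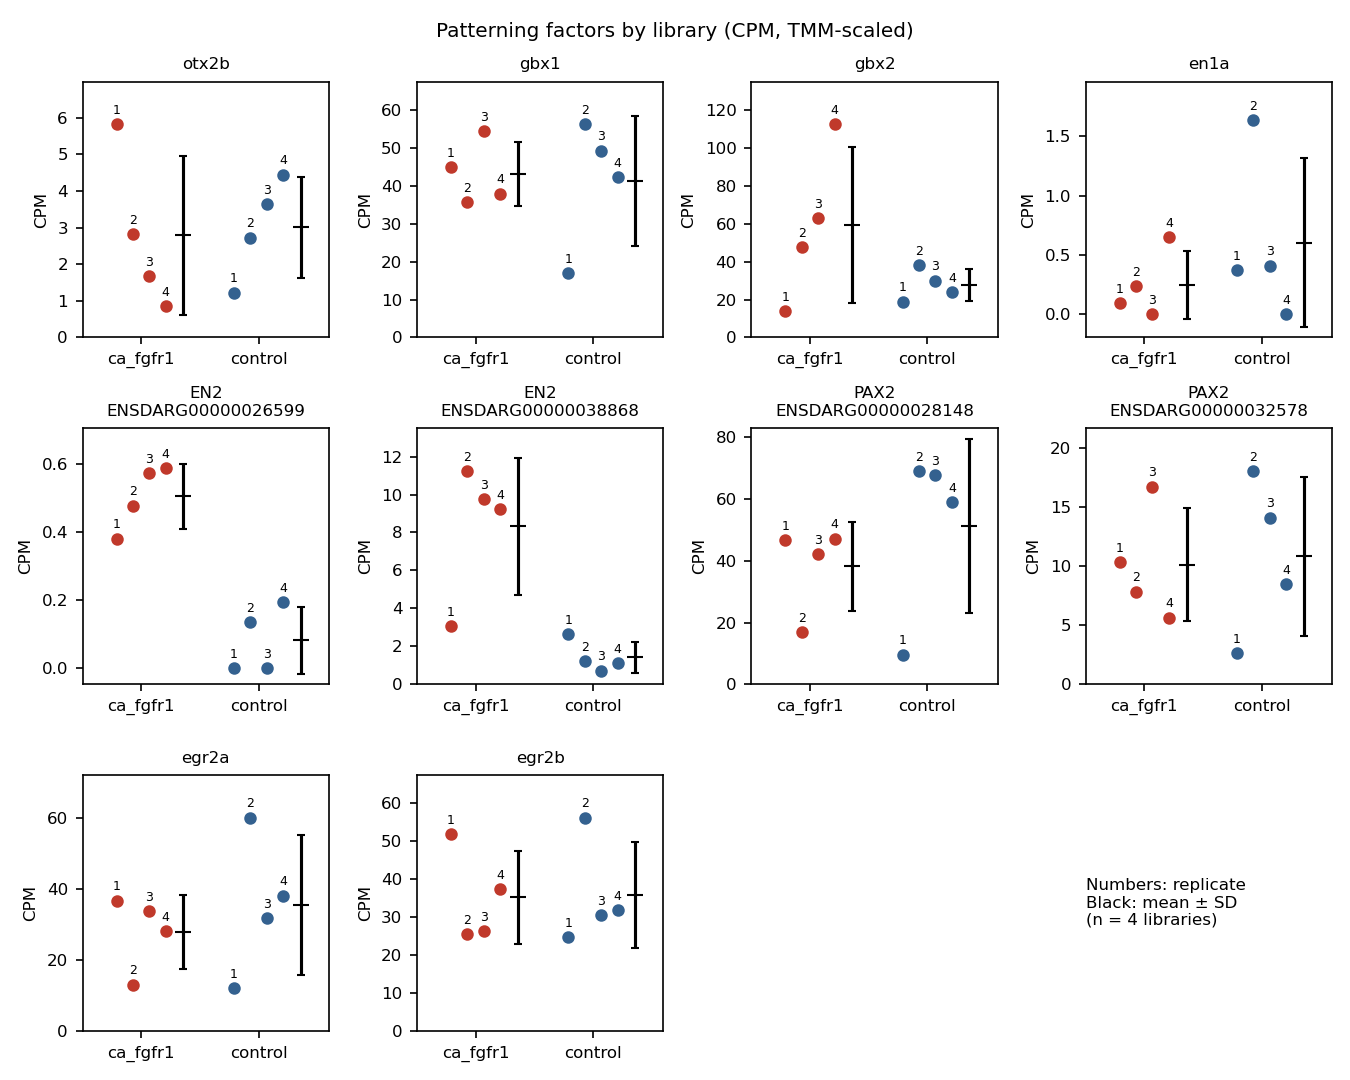
CPM (TMM-scaled) of each of the 10 IDs in the 4 ca_fgfr1 libraries (red, left) and the 4 control libraries (blue, right), each panel with its own linear axis. Numbers give the replicate, and black bars give the mean ± SD (n = 4 libraries). EN2 ENSDARG00000038868 lay between 3.05 and 11.2 CPM in ca_fgfr1, above all controls, and the other tested IDs overlapped between the groups.

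The EN2 IDs showed the largest fold changes between the groups among these factors, although ENSDARG00000026599 was too low to be tested. Engrailed proteins are homeodomain repressors that mark the midbrain-hindbrain boundary region. EN2 ENSDARG00000038868 was at 3.05, 11.2, 9.77 and 9.21 CPM in ca_fgfr1 replicates 1 to 4, against 2.62, 1.23, 0.718 and 1.12 CPM in control replicates 1 to 4. All 4 ca_fgfr1 libraries were higher than all 4 controls, although ca_fgfr1 replicate 1 and control replicate 1 were close to each other. The means were 8.32 ± 3.61 CPM in ca_fgfr1 and 1.42 ± 0.830 CPM in control (SD, n = 4 each), and the counts behind them were 64 to 188 in ca_fgfr1 and 14 to 28 in control. The fold change was 5.95 (95% interval 2.73 to 13.0), a log2 fold change of 2.57 ± 0.51 SE.

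By unadjusted p (0.000382 in edgeR), EN2 ENSDARG00000038868 ranked 24 of the 18075 tested genes, and its edgeR adjusted p was 0.284. DESeq2 gave nearly the same size (2.56 ± 0.51) with an adjusted p of 0.000447, and limma-voom gave 2.58 ± 0.56 with an adjusted p of 0.439. The call of this gene therefore depended on the tool, whereas the log2 fold change stayed between 2.34 and 3.01 in all 17 alternatives, whose adjusted p ranged from 0.000447 (DESeq2) to 0.956 (edgeR with a replicate block). It was 3.01 without control replicate 1 (edgeR adjusted p = 0.109), 2.85 without ca_fgfr1 replicate 1 (edgeR adjusted p = 0.0929) and 2.84 without control replicate 1 and ca_fgfr1 replicate 2 together, an alternative chosen after the values were seen (edgeR adjusted p = 0.264).

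The second EN2 ID, ENSDARG00000026599, was near the limit of detection and was not tested. It had 8, 8, 10 and 9 counts in ca_fgfr1 replicates 1 to 4, against 0, 2, 0 and 4 counts in control replicates 1 to 4. The groups did not overlap in CPM either (0.382 to 0.588 in ca_fgfr1, 0 to 0.195 in control), and the totals were 35 counts in ca_fgfr1 and 6 in control. When the filter on low counts was removed, its log2 fold change was 2.44 ± 0.88 SE (edgeR adjusted p = 0.830). RSEM divides reads that match both paralogues between them, so how far the values of the EN2 IDs depend on each other is not known.

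The Engrailed 1 genes were at different levels of detection from each other, one close to absent and one well measured. En1a had 2, 4, 0 and 10 counts in ca_fgfr1 replicates 1 to 4, against 4, 24, 8 and 0 counts in control replicates 1 to 4. The groups overlapped, and no library exceeded 1.64 CPM. Without the filter on low counts, the log2 fold change of en1a was below 0, at -1.27 ± 1.11 SE (edgeR adjusted p = 0.830). Its paralogue en1b, taken from the list of other boundary genes, was at 33.9, 51.7, 34.6 and 46.2 CPM in ca_fgfr1 and 38.2, 27.6, 15.6 and 16.8 CPM in control. The groups overlapped through control replicate 1, which was the highest control. The log2 fold change of en1b was 0.76 ± 0.32 SE (edgeR unadjusted p = 0.0351, adjusted p = 0.866).

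**Figure D2:**
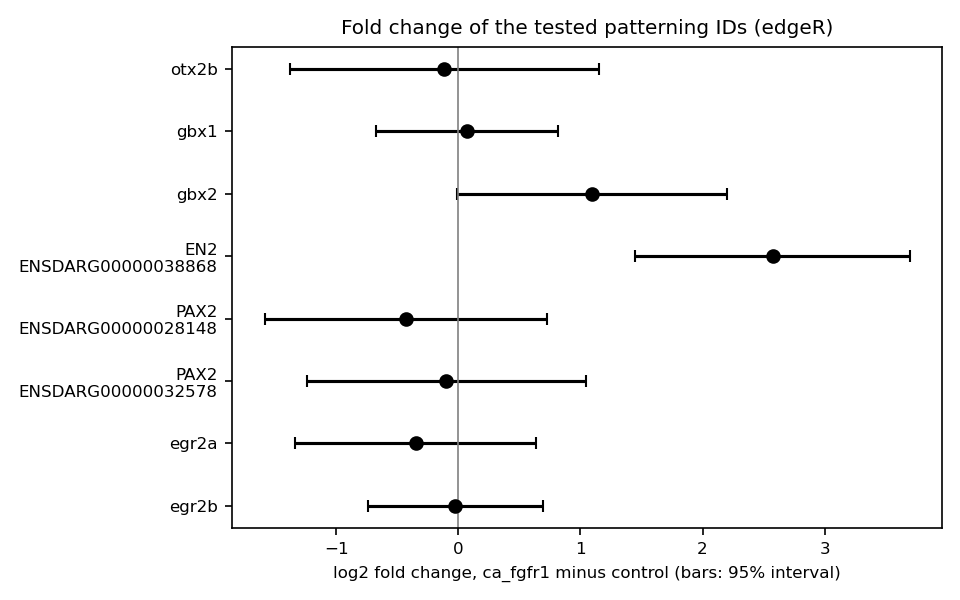
Log2 fold change (ca_fgfr1 minus control, edgeR) of the 8 tested IDs, with 95% intervals, n = 4 libraries per group. The interval of EN2 ENSDARG00000038868 (1.45 to 3.70) lies above 0, that of gbx2 reaches from -0.01 to 2.20, and the 6 others extend to both sides of 0.

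The Gbx genes, homeobox factors of the anterior hindbrain that oppose Otx at the boundary, differed from each other. Gbx2 was at 13.8, 47.7, 63.0 and 113 CPM in ca_fgfr1 replicates 1 to 4, against 18.9, 38.2, 29.9 and 23.8 CPM in control replicates 1 to 4. Replicates 2, 3 and 4 of ca_fgfr1 were above every control, whereas ca_fgfr1 replicate 1 was below every control, so the groups overlapped. The means were 59.3 ± 41.1 CPM in ca_fgfr1 and 27.7 ± 8.29 CPM in control (SD, n = 4 each), and the log2 fold change was 1.096 ± 0.501 SE (95% interval -0.01 to 2.20, edgeR unadjusted p = 0.0514, adjusted p = 0.866). DESeq2 gave 1.09 ± 0.51 (adjusted p = 0.670). The value rested largely on ca_fgfr1 replicate 4, without which it was 0.55.

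Gbx1 was at 45.0, 35.7, 54.5 and 37.9 CPM in ca_fgfr1 replicates 1 to 4 and 17.0, 56.3, 49.2 and 42.3 CPM in control replicates 1 to 4. All ca_fgfr1 libraries fell within the range of the controls, whose lowest library was replicate 1. The log2 fold change was 0.07 ± 0.34 SE (95% interval -0.68 to 0.82, edgeR adjusted p = 0.986), and its sign turned with the scaling and with the libraries included. These data therefore do not separate a rise from a fall of gbx1.

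The spread of gbx2 among the ca_fgfr1 libraries was set beside that of genes that respond to Fgf. A list of 10 such genes was used: the feedback inhibitors spry1, spry2, spry4, il17rd, spred1 and spred2a, the ERK phosphatase gene dusp6, and the ETS factors etv4, etv5a and etv5b. All 10 had a log2 fold change above 0, with a median of 1.57, and 1 of them, spry2, passed an edgeR adjusted p of 0.05 (1.77 ± 0.25 SE, adjusted p = 0.0408). The groups did not overlap in 6 of the 10, against the 3.34% of all genes given above. Dusp6 was at 133, 198, 216 and 479 CPM in ca_fgfr1 replicates 1 to 4, against 66.9, 67.3, 68.5 and 60.3 CPM in control replicates 1 to 4. It was therefore lowest in ca_fgfr1 replicate 1 and highest in ca_fgfr1 replicate 4, as gbx2 was.

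The ca_fgfr1 libraries had the same order from lowest to highest for gbx2 and for 4 of the 10 Fgf response genes (40%), and this order was found in 5.57% of all tested genes. The 4 genes were dusp6, spry4, etv4 and il17rd, and this property was chosen after the values were seen and was not tested. Spry4 was at 72.4, 93.8, 128 and 218 CPM in ca_fgfr1 replicates 1 to 4, against 8.99, 29.4, 36.3 and 41.7 CPM in control. Il17rd, like gbx2, overlapped between the groups, with 10.1, 27.3, 36.9 and 68.2 CPM in ca_fgfr1 replicates 1 to 4 and 17.7 to 28.9 CPM in control. The other 6 had another order: etv5b was at 334, 233, 384 and 287 CPM in ca_fgfr1 replicates 1 to 4, and spry1, spry2, spred1 and spred2a were, like etv5b, lowest in replicate 2. EN2 ENSDARG00000038868 was also lowest in ca_fgfr1 replicate 1, but its highest library was replicate 2. Markers of surrounding tissue shared the order of gbx2 as well. Summed neural crest markers were at 144, 250, 338 and 388 CPM in ca_fgfr1 replicates 1 to 4. Summed epidermis markers were at 7212.5, 12291, 12996 and 13839 CPM there. The summed markers of the other tissues had another order. The order is therefore not particular to Fgf response genes, and what it reflects was not tested.

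**Figure D3:**
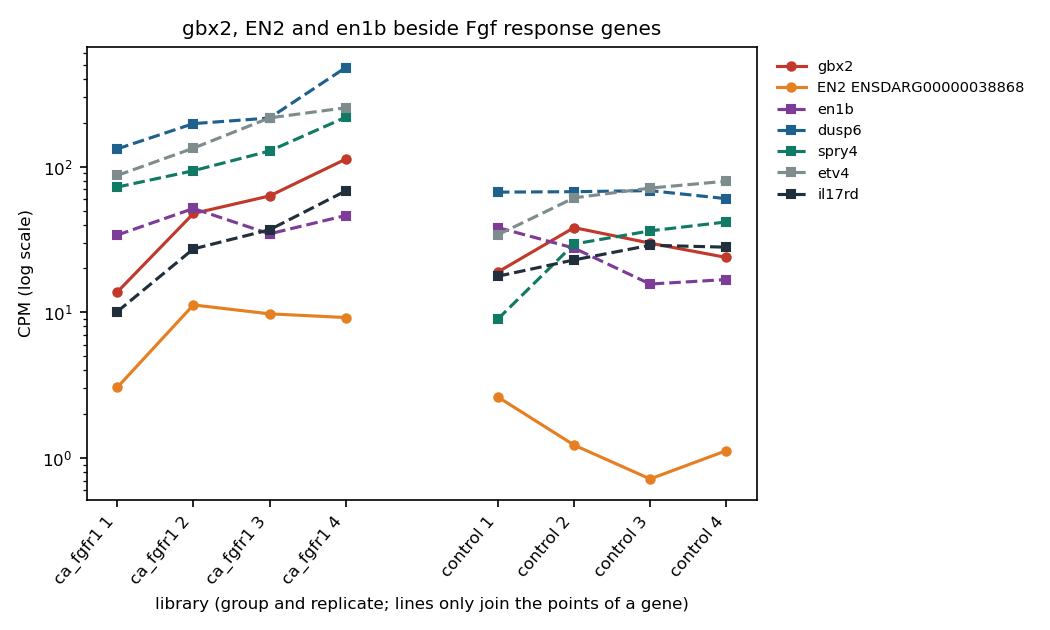
CPM on a log axis of gbx2 and EN2 ENSDARG00000038868 (circles, solid lines), with en1b and 4 Fgf response genes (squares, dashed lines), in ca_fgfr1 replicates 1 to 4 (left) and control replicates 1 to 4 (right). The lines only join the points of a gene, since replicates have no order. The Fgf response genes shown are the 4 of 10 that had the ca_fgfr1 order of gbx2. The others, spry2 and etv5b among them, had another order and are not shown. By this choice gbx2, dusp6, spry4, etv4 and il17rd were all lowest in ca_fgfr1 replicate 1 and highest in ca_fgfr1 replicate 4.

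Otx2b, a homeobox factor of the forebrain and midbrain, was low in every library. It was at 5.82, 2.81, 1.67 and 0.849 CPM in ca_fgfr1 replicates 1 to 4, against 1.22, 2.73, 3.64 and 4.44 CPM in control replicates 1 to 4, from 13 to 122 counts in ca_fgfr1 and 13 to 91 counts in control. The highest and the lowest library were both ca_fgfr1, and the groups overlapped. The means were 2.79 ± 2.18 CPM in ca_fgfr1 and 3.01 ± 1.38 CPM in control (SD, n = 4 each), and the log2 fold change was -0.11 ± 0.57 SE (95% interval -1.38 to 1.15, edgeR adjusted p = 0.986). It was -0.76 without ca_fgfr1 replicate 1 and 0.14 without ca_fgfr1 replicate 4, so that single libraries decided its direction. Within ca_fgfr1 the order of the libraries for otx2b was the reverse of that for gbx2, which is a description of 4 libraries and was not tested.

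Genes of neighbouring territories were also counted. Of 24 IDs of forebrain and midbrain genes, 12 were under 1 CPM in every library and 6 were at 1 CPM or more in every library, and the summed level of the 24 was 37.5 to 69.4 CPM in ca_fgfr1 and 39.9 to 79.5 CPM in control. Several of these genes, such as lhx2b, barhl2 and dmbx1a, are also expressed in hindbrain neurons, so the sum does not measure forebrain and midbrain tissue alone. The telencephalic factor foxg1a (log2 fold change -0.45 ± 0.27 SE), the otx2b paralogue otx2a (-0.58 ± 0.56) and the LIM factor lhx2b (-0.23 ± 0.42) had the smallest p in this list. None of its 10 tested IDs passed an unadjusted edgeR p under 0.05. At the posterior end, 14 of 17 IDs of spinal cord level genes, mostly posterior Hox genes, were under 1 CPM in every library. Their summed level was 0.334, 16.7, 1.84 and 13.7 CPM in ca_fgfr1 replicates 1 to 4, against 22.6, 22.4, 16.4 and 4.39 CPM in control replicates 1 to 4, so it was close to 0 in ca_fgfr1 replicates 1 and 3. Of the 3 tested IDs in this list, hoxb6b (-1.27 ± 1.12 SE, edgeR unadjusted p = 0.279) was the only one whose symbol had 1 ID. The other 2, named after their values were seen, were HOXB5 ENSDARG00000013057 (-0.91 ± 0.75 SE, edgeR unadjusted p = 0.251) and HOXB5 ENSDARG00000054030 (-1.17 ± 1.04 SE, edgeR unadjusted p = 0.288). The HOXB5 IDs made up most of the summed level in every library. In contrast, 28 of 32 IDs of genes of rhombomeres 2 to 7 were at 1 CPM or more in every library.

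The PAX2 IDs, paired-box factors of the boundary that are also expressed in the otic vesicle and the pronephros, varied more among libraries than between the groups. PAX2 ENSDARG00000028148 was at 46.8, 16.8, 42.1 and 47.1 CPM in ca_fgfr1 replicates 1 to 4, against 9.55, 69.1, 67.8 and 59.1 CPM in control replicates 1 to 4. One library in each group was far below the others: ca_fgfr1 replicate 2 and control replicate 1. The log2 fold change was -0.43 ± 0.52 SE (95% interval -1.59 to 0.73, edgeR adjusted p = 0.925).

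PAX2 ENSDARG00000032578 was at 10.4, 7.83, 16.7 and 5.62 CPM in ca_fgfr1 replicates 1 to 4, against 2.62, 18.1, 14.1 and 8.49 CPM in control replicates 1 to 4. The lowest and the highest library were both controls. The log2 fold change was -0.10 ± 0.52 SE (95% interval -1.24 to 1.04, edgeR adjusted p = 0.986), and its sign turned in limma-voom and when single libraries were left out. Markers of the other tissues that express Pax2 moved with these IDs in part: the otic gene oc90, chosen after the values were seen, was at 184, 59.7, 137 and 65.5 CPM in ca_fgfr1 replicates 1 to 4 and 11.0, 195, 171 and 136 CPM in control replicates 1 to 4, and was lowest in control replicate 1 as both PAX2 IDs were. Of the 6 otic marker IDs, 4 were lowest of the 8 libraries in control replicate 1, but atoh1b was highest there (227 CPM). The otic marker with the highest level, stm, was not low there either. It was at 426 CPM in control replicate 1, against 433, 324 and 269 CPM in control replicates 2 to 4. The summed level of the 6 otic marker IDs in control replicate 1 was 725 CPM, within the range of the other controls, and most of it came from stm. The study also places atoh1b in hindbrain neurogenesis, so this sum does not measure otic tissue alone. None of the 6 otic and 1 of the 5 tested pronephros marker IDs passed an unadjusted edgeR p under 0.05, against 5.34% of all genes. The summed pronephros markers were 186 to 277 CPM in ca_fgfr1 and 116 to 333 CPM in control. Most of this sum in every library came from SLC20A1 ENSDARG00000010641 (85.4 to 239 CPM) and atp1a1a.4 (25.0 to 109 CPM). Cdh17 and wt1a were too low to be tested. Their means were 0.166 and 0.404 CPM in ca_fgfr1, and 0.572 and 0.855 CPM in control. The study also places lhx1a, a member of this list, in hindbrain neurons, so the sum does not measure pronephros alone. The part of otic and pronephros tissue in the PAX2 values was not tested.

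The rhombomere factors egr2a and egr2b were detected in every library, and their groups overlapped. Egr2b, a zinc finger factor of rhombomeres 3 and 5, was at 51.8, 25.5, 26.4 and 37.3 CPM in ca_fgfr1 replicates 1 to 4, against 24.7, 56.2, 30.5 and 31.8 CPM in control replicates 1 to 4. Both groups covered the same range. The means were 35.2 ± 12.3 CPM in ca_fgfr1 and 35.8 ± 13.9 CPM in control (SD, n = 4 each), and the log2 fold change was -0.02 ± 0.32 SE, with a 95% interval of -0.74 to 0.69 (edgeR adjusted p = 0.995). These values are compatible with a change in either direction of a size within this interval. They do not separate a rise from a fall of egr2b.

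Its paralogue egr2a was at 36.6, 13.0, 33.8 and 28.1 CPM in ca_fgfr1 replicates 1 to 4, against 12.1, 60.0, 31.8 and 38.1 CPM in control replicates 1 to 4. The groups overlapped, with 1 library in each group (ca_fgfr1 replicate 2 and control replicate 1) well below the rest. The log2 fold change was -0.35 ± 0.45 SE (95% interval -1.34 to 0.64, edgeR adjusted p = 0.929).

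**Figure D4:**
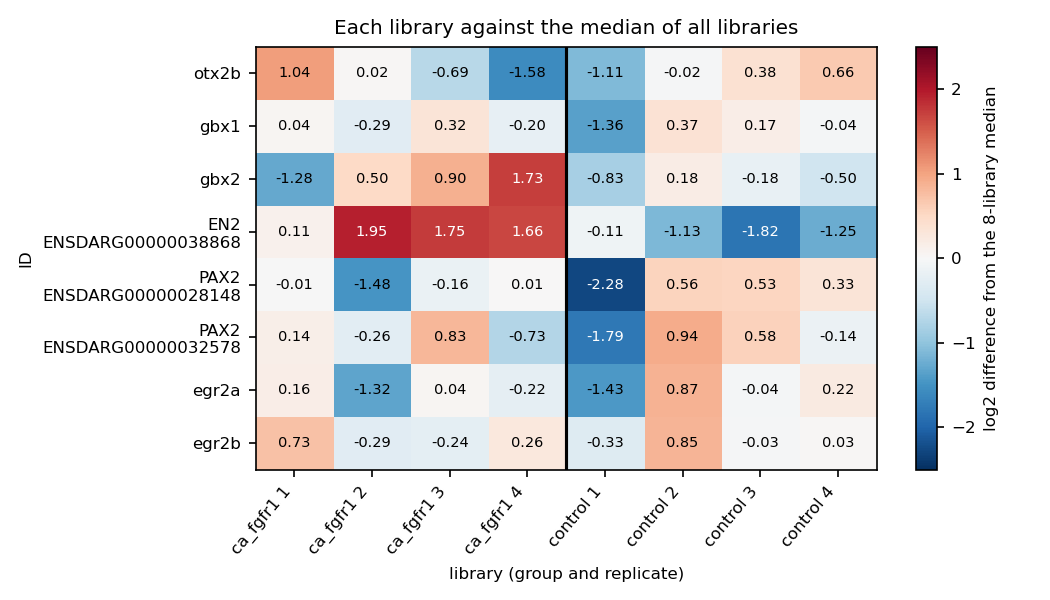
Log2 difference of each library from the median of the 8 libraries, for the 8 tested IDs (rows) in ca_fgfr1 replicates 1 to 4 (left of the black line) and control replicates 1 to 4 (right). Red is above and blue below the median. Control replicate 1 was below the median in 8 of 8 IDs, and was lowest for PAX2 ENSDARG00000028148 (-2.28). For EN2 ENSDARG00000038868 every control was below the median.

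Measured against the median of the 8 libraries, control replicate 1 was below it for 8 of the 8 tested IDs and was the lowest library for 5. For EN2 ENSDARG00000038868, however, every control was below the median, and control replicate 1 was the highest of them (-0.11 on the log2 scale). Control replicate 2 was above the median for 6 IDs and was the highest library for 5. In ca_fgfr1 replicate 2 the low values were those of PAX2 ENSDARG00000028148 (-1.48 on the log2 scale) and egr2a (-1.32), whereas gbx2 (0.50) and EN2 ENSDARG00000038868 (1.95) were above the median there. The neuronal gene elavl3, chosen after the values were seen, was low in the same libraries: it was at 511, 139, 497 and 486 CPM in ca_fgfr1 replicates 1 to 4, against 183, 661, 745 and 796 CPM in control replicates 1 to 4. Of the 7 neural tube marker IDs, neuronal and progenitor genes together, 4 were lowest of their group in ca_fgfr1 replicate 2 and 4 in control replicate 1. Others went the other way. The progenitor gene sox3 was highest of the 8 libraries in control replicate 1 (1231 CPM), and was at 1214 CPM in ca_fgfr1 replicate 2. ZIC2 ENSDARG00000037178 was highest of the controls in replicate 1 (141 CPM). The summed level of the 7 IDs was 2789, 2009, 2459 and 1973 CPM in ca_fgfr1 replicates 1 to 4, against 2100, 2883, 2738 and 2767 CPM in control replicates 1 to 4. The part of neural tissue content in the values of the patterning factors was not tested.

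Over the 8 libraries, the highest value divided by the lowest was 2.27 for egr2b, 3.32 for gbx1 and 4.96 for egr2a. It was between 6.85 and 8.16 for otx2b, PAX2 ENSDARG00000032578, PAX2 ENSDARG00000028148 and gbx2, and 15.7 for EN2 ENSDARG00000038868. On the log2 scale the median range of the 8 IDs was 2.67, against a median of 1.45 for all tested genes. Only egr2b, at the 34.3 percentile of all tested genes, had a range below the median.

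Other genes of the same territories were counted as lists. Of 17 IDs of midbrain-hindbrain boundary and rhombomere 1 genes, 14 were tested and 0 passed an edgeR adjusted p of 0.05. At an unadjusted p under 0.05, 1 was higher in ca_fgfr1 (en1b) and 0 were lower, against 5.34% of all genes in both directions. The median log2 fold change was -0.22, with 6 IDs above and 8 below 0. Among symbols with 1 ID, the smallest p values after en1b were those of the Wnt target sp5a (SP5 in the symbol table, -0.61 ± 0.39 SE) and of pax5 (0.71 ± 0.66 SE), a boundary gene at 0 to 1.72 CPM. Of the symbols with more than 1 ID, FGF18 ENSDARG00000088048, chosen after its values were seen, was the 1 ID of this list whose groups did not overlap. It was at 1.14 to 1.83 CPM in ca_fgfr1 and 1.87 to 2.87 CPM in control (-0.68 ± 0.35 SE, edgeR unadjusted p = 0.0765, adjusted p = 0.866). This was 1 of the 14 tested IDs, against 3.34% of all tested genes without overlap, both directions counted. The Her factors her5 and her11, which keep the boundary region free of neurons, were under 0.25 CPM in every library.

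Of 32 IDs of genes of rhombomeres 2 to 7, 28 were tested and 0 passed an edgeR adjusted p of 0.05. At an unadjusted p under 0.05, 1 was higher and 3 were lower in ca_fgfr1, against 5.34% of all genes in both directions. Of the log2 fold changes, 5 were above and 23 below 0, against 8298 above and 9777 below 0 over all tested genes. The number at an unadjusted p under 0.05 rested on single libraries: it was 4 with all libraries, 8 without control replicate 1, 0 without control replicate 3, and 1 or 2 without any other library. The median log2 fold change of the list was -0.32, against -0.04 for all tested genes. The higher ID, chosen after its values were seen, was TIMP2 ENSDARG00000075261, with 7.53 to 11.0 CPM in ca_fgfr1 and 3.56 to 7.21 CPM in control (log2 fold change 0.69 ± 0.30, edgeR unadjusted p = 0.0416), whose groups did not overlap. The 3 lower genes were hoxb4a and hoxd3a, Hox genes of the posterior hindbrain, and col15a1b, a collagen gene found in rhombomeres 5 and 6. Hoxb4a was at 14.3, 29.1, 20.4 and 17.3 CPM in ca_fgfr1 replicates 1 to 4, against 22.9, 39.7, 39.3 and 29.5 CPM in control replicates 1 to 4, and hoxd3a at 13.9, 18.4, 26.5 and 25.0 CPM in ca_fgfr1, against 18.6, 42.6, 40.8 and 35.9 CPM in control. Both overlapped between the groups, hoxb4a through its lowest control and highest ca_fgfr1 library, and hoxd3a through control replicate 1. Col15a1b was at 29.4, 9.63, 13.6 and 10.4 CPM in ca_fgfr1 replicates 1 to 4, against 7.96, 28.6, 62.2 and 62.3 CPM in control. Its groups overlapped too, and its lowest library was control replicate 1. The log2 fold changes were -0.70 ± 0.29 for hoxb4a, -0.72 ± 0.31 for hoxd3a and -1.35 ± 0.58 for col15a1b (edgeR unadjusted p 0.0333, 0.0424 and 0.0393, adjusted p 0.866 for each). Hoxb2a, chosen after its values were seen, was the 1 ID of this list that was lower without overlap. It was at 28.5 to 42.0 CPM in ca_fgfr1 and 42.5 to 57.1 CPM in control (-0.32 ± 0.22 SE, edgeR unadjusted p = 0.171). Over all genes, 3.34% did not overlap in either direction.

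**Figure D5:**
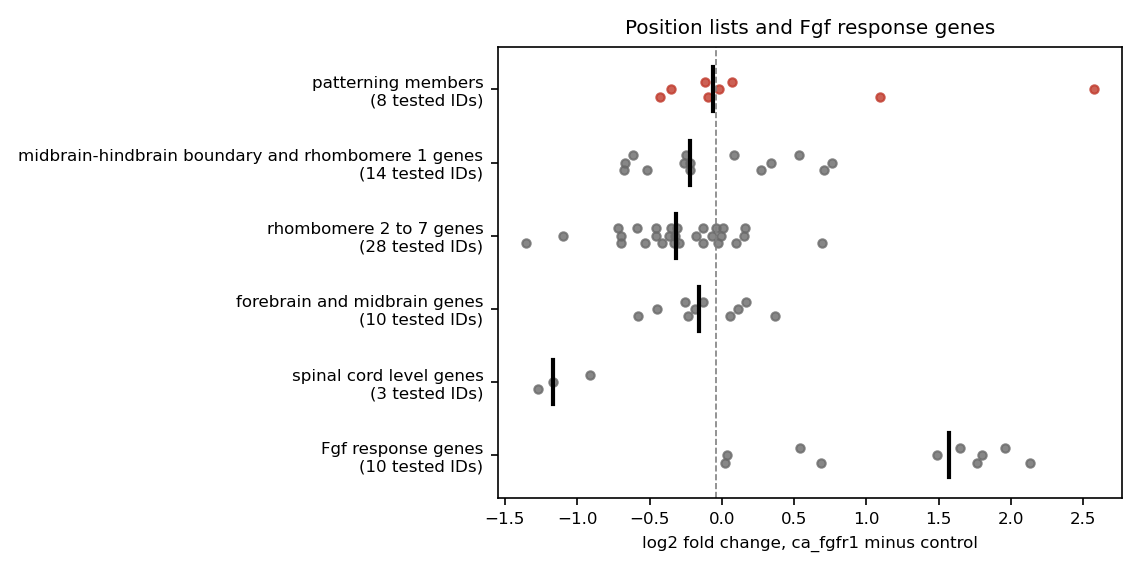
Log2 fold change (ca_fgfr1 minus control, edgeR) of the tested IDs of the patterning factors (red) and of 5 gene lists (grey). Each point is an ID, the black bar is the median of its list and the dashed line is the median of all 18075 tested genes (-0.04). The medians of the position lists lie below 0 and that of the Fgf response genes is 1.57.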

How the data were processed

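RNA was measured in 8 libraries, 4 of ca_fgfr1 and 4 of control hindbrains. The authors amplified cDNA with a SMARTer kit, made single-end Nextera XT libraries, aligned the reads to GRCz10 with STAR 2.5.1b and estimated gene counts with RSEM 1.2.31. The deposited values are expected counts (RSEM estimates) that the authors rounded to whole numbers, unscaled. Column names were read as C for control and F for ca_fgfr1, with the number as the replicate. Whether counting used strand was not given in the sources used here.

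Gene names came from a symbol table that named 26350 of 32189 IDs (81.9%). A RefSeq table of another assembly gave synonyms only, so no coordinates or sequences are printed.

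The analysis used edgeR 4.0.16 under R 4.3.3: filterByExpr (18075 genes kept), TMM scaling and the quasi-likelihood F-test over all 8 libraries, ca_fgfr1 minus control, with Benjamini-Hochberg adjustment over all tested genes. SE was derived from the log2 fold change and its F statistic, and intervals are 95%. The common biological coefficient of variation was 0.398, which, with 4 libraries a group, limits the precision. Alternatives were other scaling and filters, DESeq2 1.42.0 (on the same filtered genes), limma-voom (limma 3.58.1), a replicate block, and leaving out libraries. The edgeR steps were tested on simulated data.

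All IDs of the 9 names are printed, and 1 further factor of the set is not reported here. From other lists, genes at an adjusted p of 0.05 or among the 3 smallest unadjusted p with 1 ID were named. A few other list genes are printed, as the text states, on the basis of their values. Members and lists were chosen with earlier results of these data known.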

Additional observations from a re-analysis of the deposited data

Results flagged for a closer look

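Among the 8 tested IDs in 2 groups of 4 libraries, 3 of 16 sets held a library far from the other 3. The rule was Dixon's criterion at the 95% level, applied to log2 CPM (the gap to the nearest library divided by the group's range). Chance meets it in about 1 of 20 sets. The levels below are printed as CPM without the log2 step, and the criterion was not applied on that scale. The sets are not independent, because the same libraries recur. In ca_fgfr1 replicate 1, EN2 ENSDARG00000038868 was at 3.05 CPM, against 9.21 to 11.2 CPM in the other ca_fgfr1 libraries. In ca_fgfr1 replicate 2, PAX2 ENSDARG00000028148 was at 16.8 CPM, against 42.1 to 47.1 CPM in the other ca_fgfr1 libraries. In control replicate 1, PAX2 ENSDARG00000028148 was at 9.55 CPM, against 59.1 to 69.1 CPM in the other controls.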

How the results depend on the processing

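The count of patterning IDs that met the study's criteria was 0 in edgeR and 1 with DESeq2, and the count at an adjusted p of 0.05 was likewise 0 and 1. It was 0 in every other alternative, with 0 to 0 over the fits without 1 library. The other position lists gave 0 IDs in all 17 alternatives. Between libraries of the same replicate number, the correlations of deviations were -0.29, -0.01, 0.22 and 0.19. These values alone cannot settle whether the replicate numbers pair the libraries. With the replicate block the counts were 0 and the log2 fold change of EN2 ENSDARG00000038868 was 2.60 (edgeR adjusted p = 0.956). Over all genes, 0 to 45 were called and 1 to 82 passed an adjusted p of 0.05, the upper values with DESeq2.

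Signs turned for 5 of the 8 log2 fold changes, none of which passed a threshold. Gbx1 was -0.024 with library totals only and -0.10 without control replicate 1 and ca_fgfr1 replicate 2 together, egr2b was 0.0052 without the filter, and PAX2 ENSDARG00000032578 was 0.053 with limma-voom and 0.049 with the replicate block. Leaving out 1 library gave -0.76 to 0.14 for otx2b, -0.19 to 0.26 for gbx1, -0.48 to 0.26 for PAX2 ENSDARG00000032578, -0.64 to 0.028 for egr2a and -0.27 to 0.28 for egr2b. It gave 0.55 to 1.43 for gbx2, 2.34 to 3.01 for EN2 ENSDARG00000038868 and -0.77 to -0.21 for PAX2 ENSDARG00000028148. The cause of these shifts was not tested. Depth limited en1a (16 counts in ca_fgfr1, 36 in control) and EN2 ENSDARG00000026599 (35 counts in ca_fgfr1, 6 in control) most.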

Other observations

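Besides gbx2 and EN2 ENSDARG00000038868, ca_fgfr1 replicate 1 was low for a few genes with regional expression, all chosen after their values were seen and not tested. It was also the lowest ca_fgfr1 library for 6 of 6 epidermis and 5 of 7 neural crest marker IDs. The same held for 0 of 6 otic vesicle and 0 of 7 neural tube marker IDs. Emx3, a telencephalic homeobox gene, was at 0.191 CPM there, against 5.56 to 15.2 CPM in the other ca_fgfr1 libraries and 4.84 to 7.68 CPM in control. Fgf17, a ligand of the midbrain-hindbrain boundary, was at 0.0954 CPM there, against 2.70 to 4.25 CPM in the other ca_fgfr1 libraries and 3.08 to 5.34 CPM in control. Hoxb1b, a Hox gene of the early posterior hindbrain, was at 2.67 CPM there, against 14.3 to 37.2 CPM in the other ca_fgfr1 libraries and 15.3 to 68.2 CPM in control. Wnt1, a roof plate and boundary ligand, was by contrast highest in this library, at 37.8 CPM, against 12.0 to 16.7 CPM in the other ca_fgfr1 libraries and 17.4 to 21.4 CPM in control.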
